A study of Mus musculus with 6 samples.

Results

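Cells of the mouse myoblast line C2AS12 carrying wild-type p300 were compared here with the same cells carrying a mutant p300, on the 4 arrays of the series that hold these treatments without doxycycline. The members were chosen by their titles: 1 array each of cells infected with the adenovirus Adp300wt or Adp300mut at T0, before differentiation medium (DM) was added, and 1 array each after 24 h in that low-serum medium. These are 4 of the 6 arrays of the series; the other 2, of Adp300wt with doxycycline, were not used. C2AS12 cells derive from C2 myoblasts and carry an antisense Igf2 cDNA, and they die in low-serum medium unless a growth factor is supplied. The submitters give cell survival as the outcome with the wild-type virus and apoptotic death with the mutant. The labels do not state the mutation, and cells without virus were not analysed here. Each treatment had 1 array at each time, so no ratio at a single time has a replicate, and treatment, virus preparation and culture cannot be told apart. The number of arrays limits the precision of every value.

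p300, encoded by Ep300, is a histone acetyltransferase and transcriptional coactivator. It is recruited by many DNA-bound factors, among them NF-kB, AP-1, p53, nuclear receptors and the myogenic factor MyoD, and it acetylates histones and other proteins at their target genes. In myoblasts it takes part in the activation of muscle genes and in cell cycle exit. The array has no probe set assigned to Ep300 alone, so the amount of p300 itself is not reported here. Of 12 markers of myoblasts, 11 had a probe set and all 11 read above the floor (a signal of 15.9, defined in the next paragraph) on at least 1 array; their summed signal was 3514.8 with wild type and 3182.6 with mutant p300 at 0 h, and 4168.5 and 4389.0 at 24 h.

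Signals were linear array intensities from 12488 probe sets. Values under the 25th percentile of the 4 arrays, a signal of 15.9, were raised to that floor, and the 6213 probe sets with a mean signal of at least 73.7 were tested. They stood for 4817 genes, each read from its brightest probe set. The trimmed mean signal lay between 199.3 and 200 on the 4 arrays. The 9 spike-in control probe sets, for RNAs added during labelling, had a mean log2 signal that was 9.0 with wild type and 8.89 with mutant p300 at 0 h, but 8.84 and 9.26 at 24 h. The 3' to 5' actin ratio, which rises as RNA degrades, was 1.33 and 1.34 at 0 h and 1.33 and 1.49 at 24 h in the same order. Spike-in level and actin ratio thus moved with the treatment at 24 h, and their part in the results at 24 h was not tested. All ratios are wild type over mutant on the log2 scale, so that positive values mean more signal with wild-type p300.

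Wild-type p300 went with higher signal of a small set of genes, and this set was seen both before and after the medium change. At 0 h, 43 of 4817 genes (0.893%) were at least 2-fold higher and 18 (0.374%) at least 2-fold lower with wild type. At 24 h these counts were 121 (2.51%) and 45 (0.934%). At both times, 22 genes (0.457%) were at least 2-fold higher, 2 (0.0415%) were at least 2-fold lower, and 3 changed side, 2 of them higher at 0 h and lower at 24 h (0.0415%) and 1 the reverse (0.0208%). Most genes differed little: the median ratio over all genes was -0.02 at 0 h and -0.05 at 24 h, with SDs over genes of 0.33 and 0.46. The ratios at the 2 times, which share no array, had a Pearson correlation of 0.45 and a Spearman correlation of 0.42 across the 4817 genes, which are not independent replicates. Of all genes tested, 1392 (28.9%) were higher by any amount at both times, 1765 (36.6%) lower at both and 1647 (34.2%) on opposite sides.

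**Figure D1:**
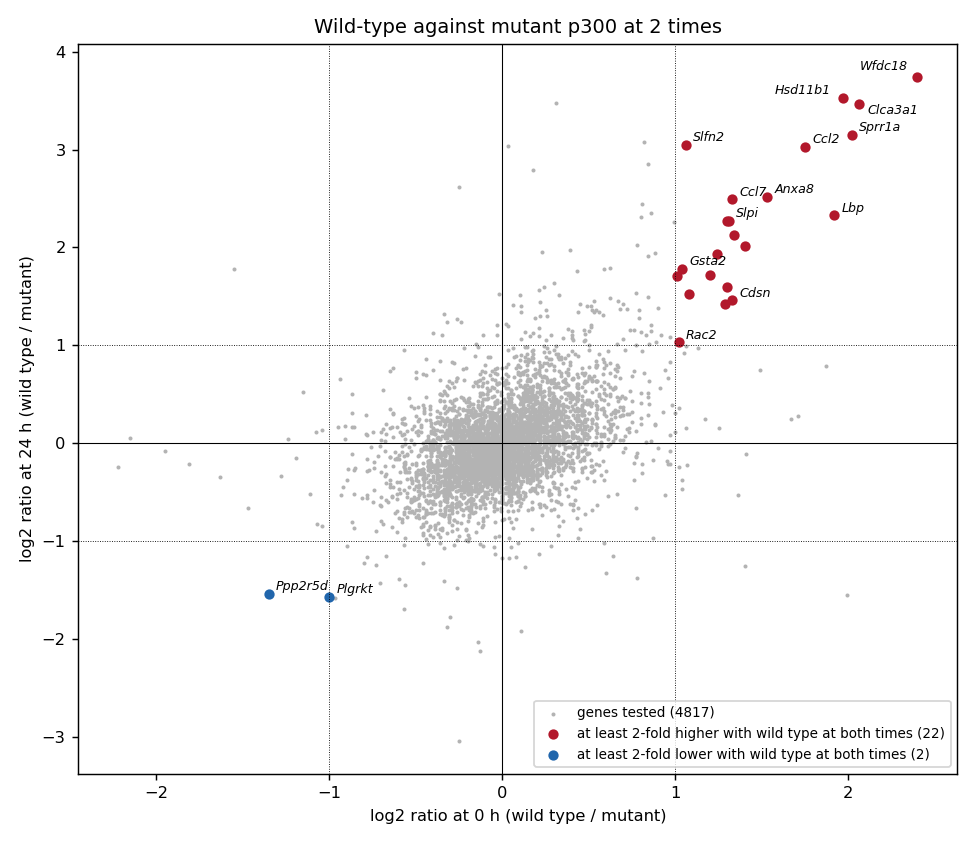
Log2 ratio of wild-type over mutant p300 at 24 h (vertical axis) against that at 0 h (horizontal axis) for the 4817 genes tested, 1 point per gene; dotted lines mark 2-fold. The 22 genes at least 2-fold higher at both times (red) all lie further from 0 at 24 h than at 0 h, and 2 genes (blue) were at least 2-fold lower at both.

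A test over both times was run with limma, with treatment and time as terms, on all 6213 probe sets. In probe sets rather than genes, 57 (0.917%) were 2-fold higher and 26 (0.418%) lower at 0 h, 165 (2.66%) and 54 (0.869%) at 24 h, and 26 (0.418%) and 3 (0.0483%) at both times. The error of the test combines the spread of the treatment difference over the 2 times, with 1 residual degree of freedom, with the spread of other probe sets of like signal, which limma weighted with a median of 6.64 degrees of freedom, so that most of it came from other probe sets. On simulated data the fit made more false calls than its threshold allows, so a pass is a weak statement. At a Benjamini-Hochberg adjusted p under 0.05, limma called 25 probe sets higher (0.402%) and 2 lower (0.0322%) with wild type, for 23 genes higher (0.477%) and 2 lower (0.0415%). Of the 22 genes at least 2-fold higher at both times, 17 passed this test and 5 did not; of the 2 lower, 1 passed. Among all 4817 genes, 419 (8.7%) had an unadjusted p under 0.05 on the higher and 411 (8.53%) on the lower side. The limma calls depend on the fit: the count of 27 probe sets was 0 with quantile normalization, with probe sets of plain _at names only, without the variance trend and without the time term, where 1069, 840, 972 and 360 probe sets had an unadjusted p under 0.05, against 1050 in the fit reported here. The adjusted p-values given below hold for that fit alone. Scaling to the spike-in controls would move the median ratio of all genes to -0.12 at 0 h and 0.37 at 24 h, so that counts of genes higher or lower by any amount shift with it, and small negative ratios at 24 h, such as those of Crebbp and Kat2b, change sign. For that reason list medians are set beside those of all genes.

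Among the chemokine genes, Ccl2 and Ccl7 were at least 2-fold higher with wild type at both times. Chemokines are secreted proteins that draw leukocytes; Ccl2 and Ccl7 encode monocyte chemokines that bind the receptor CCR2. Ccl2 read 1487.0 with wild-type and 441.5 with mutant p300 at 0 h, and 1773.7 and 217.6 at 24 h. Its signal was thus higher with wild type at both times, and the mutant array at 24 h held the lowest value. The ratios were 1.75 and 3.03, with a mean of 2.39 ± 0.90 (SD over the 2 times, n = 2; limma adjusted p = 0.0178). Ccl7 read 296.0 and 117.6 at 0 h, and 280.4 and 49.8 at 24 h, with ratios of 1.33 and 2.49 (limma adjusted p = 0.0427). In Ccl7, too, the wild-type arrays stood close together and the mutant array was lower at 24 h than at 0 h. Of 9 chemokine genes tested, 2 were at least 2-fold higher at 0 h, 4 at 24 h and 2 at both times, and 0 were lower. Ccl9 and Cxcl12 made up the 4. Of all genes, 0.893%, 2.51% and 0.457% were 2-fold higher at 0 h, at 24 h and at both times. By any amount 6 of the 9 were higher at both times and 0 lower at both, against 28.9% and 36.6% of all genes. The median ratios of the list were 0.50 and 0.78, against -0.02 and -0.05 over all genes. Ccl9 read 611.7 against 384.7 at 0 h and 763.4 against 280.2 at 24 h, ratios of 0.67 and 1.45 (adjusted p = 0.0709). Ccl8 had ratios of 0.76 and 0.74, with signals of 186.4 and 110.0 at 0 h and 246.5 and 147.4 at 24 h.

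Genes of the acute phase and of NF-kB signalling, the pathway that switches on inflammatory genes, included Lbp, Slpi and Il1rn. Lbp, which encodes the lipopolysaccharide-binding protein, read 219.2 with wild type and 58.0 with mutant p300 at 0 h, and 532.4 and 106.0 at 24 h. Its signal was higher at 24 h than at 0 h with either virus, and the ratios of 1.92 and 2.33 had a mean of 2.12 ± 0.29 (SD, n = 2; limma adjusted p = 0.0163). Slpi, a secreted inhibitor of neutrophil elastase, read 835.7 and 336.5 at 0 h and 1159.6 and 239.8 at 24 h, ratios of 1.31 and 2.27 (adjusted p = 0.0249). Another tested probe set of Slpi gave 1.15 and 1.91, a dim one gave 0.24 and 1.01, and another lay under the floor on all 4 arrays. Il1rn, the interleukin-1 receptor antagonist, had ratios of 0.86 and 1.21 (adjusted p = 0.0463). Ptgs2, the inducible cyclooxygenase, had 0.86 and 1.15 and did not pass (adjusted p = 0.0974). Of 19 genes of this list, 3 were at least 2-fold higher at 0 h, 4 at 24 h and 2 at both times, 0 were lower, and limma called 3 higher. Of all genes, 0.893%, 2.51% and 0.457% were 2-fold higher at these times, and limma called 0.477% higher. Signals of the pathway's own components differed less: Nfkbia, which encodes the inhibitor IkB-alpha, had ratios of 0.20 and 0.47, and Rela, the p65 subunit, -0.29 and -0.46, neither called by limma.

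Inflammatory genes are also expressed by leukocytes, so the markers of those cells were read beside them. Of 22 macrophage and leukocyte markers, 20 had a probe set, 14 of which read above the floor on at least 1 array. Adgre1, Itgam, Lyz2, Cd3e, Mrc1 and Lcp1 lay under the floor on all 4 arrays, and Ptprc, the pan-leukocyte antigen CD45, read 1.7 and 1.9 at 0 h and 15.9 and 2.0 at 24 h. The summed signal of the list was 1609.8 with wild type and 1281.0 with mutant at 0 h, and 1759.3 and 983.3 at 24 h. Of the 5 list members bright enough to be tested, 2 were at least 2-fold higher at 24 h, against 2.51% of all genes. They were Blnk and Igll1. Blnk, an adaptor of B cell receptor signalling, read 427.5 and 235.3 at 0 h and 453.5 and 89.2 at 24 h. Igll1, a chain of the pre-B cell receptor, read 86.7 and 48.5 and then 258.0 and 35.7. With both mutant arrays under 73.7, Igll1 passed the filter only through its wild-type arrays, which favours this direction. The endothelial markers summed to 433.0 and 320.4 at 0 h and 505.0 and 320.4 at 24 h, and the epithelial ones to 385.3 and 324.3 and then 447.4 and 350.2. The adipocyte markers summed to 1292.3 and 1157.4 and then 1405.9 and 1316.4, and those of bone and cartilage to 142.3 and 97.0 and then 179.4 and 133.2. These sums were higher with wild type at both times, and their part in the results was not tested.

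Genes known from stressed or cornifying epithelium formed a second group. Sprr1a, a precursor protein of the cornified envelope, read 237.7 with wild type and 58.7 with mutant p300 at 0 h, and 687.5 and 77.3 at 24 h. The signal at 24 h exceeded that at 0 h by 1.53 on the log2 scale with wild type and by 0.40 with mutant, and the ratios were 2.02 and 3.15 (mean 2.59 ± 0.80, SD, n = 2; limma adjusted p = 0.0178). Anxa8, an annexin that binds phospholipids in the presence of calcium, read 715.9 and 247.8 and then 959.5 and 166.8, ratios of 1.53 and 2.52 (adjusted p = 0.0178). Cdsn, corneodesmosin, an adhesion protein of cornified skin, had nearly equal ratios at both times. It read 723.8 and 287.6 at 0 h and 620.3 and 225.1 at 24 h, ratios of 1.33 and 1.46 (adjusted p = 0.0163). Of 15 genes of the list of stress keratins and cornified envelope, 2 were at least 2-fold higher at 0 h, 5 at 24 h and 2 at both times. Of all genes, 0.893%, 2.51% and 0.457% were. In the list 0 genes were lower at either time. The 5 at 24 h were Anxa8, Krt13, Krt6a, Sprr1a and Tinagl1. The median ratios of the list were 0.40 and 0.67. Krt6a, a keratin induced in wounded epithelium, read 193.6 and 104.9 at 0 h and 456.3 and 119.0 at 24 h (ratios of 0.88 and 1.94, adjusted p = 0.0728). Tinagl1, a matrix protein, lay just outside the rule for both times, at 0.99 and 2.26.

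The remaining genes with the largest ratios at both times were of varied kinds. Wfdc18, of the whey acidic protein family of protease inhibitors, read 84.2 with wild type and 10.9 with mutant p300 at 0 h, and 212.0 and 7.2 at 24 h. Both mutant arrays were under the floor, so that wild type was at least 5.30-fold higher at 0 h and at least 13.3-fold higher at 24 h (adjusted p = 0.0413 with the floor). Clca3a1, of a family of chloride channel regulators, read 105.0 and 25.1 and then 176.4 and 2.0, which is 4.18-fold higher at 0 h and at least 11.1-fold higher at 24 h (adjusted p = 0.048). Wfdc18 and Clca3a1, at mean signals of 78.6 and 77.1, passed the filter of 73.7 only through their wild-type arrays, which favours this direction. Genes such as Hsd11b1, Nppb and Entpd2, with both mutant arrays under 73.7, passed in the same way. With the floor at the 40th percentile the limma adjusted p was 0.0932 for Wfdc18 and 0.066 for Clca3a1. Neither was tested under the stricter filter. Lama4, a laminin chain, read 137.9 and 54.3 and then 237.8 and 54.4, and Mfap5, a protein of elastic microfibrils, 158.6 and 59.9 and then 452.7 and 112.7. Limma called both, at adjusted p = 0.048 and 0.0263, while a second, dimmer probe set gave no value above the floor for Lama4 and ratios of 0.42 and 0.89 for Mfap5. Vamp5, a vesicle protein of muscle, had ratios of 1.30 and 1.60 (adjusted p = 0.0181). Nppb, which encodes brain natriuretic peptide, had 1.30 and 2.27, and Entpd2, an enzyme that splits extracellular ATP, 1.29 and 1.42; neither passed, at adjusted p = 0.0709 and 0.0926. The dimmer of the Entpd2 probe sets was under the floor on all 4 arrays. Cryab, the small heat shock protein alphaB-crystallin, read 474.9 and 206.1 and then 773.7 and 235.2 (ratios of 1.20 and 1.72, adjusted p = 0.0178). That value came from a probe set whose _f_at name marks possible cross-hybridisation, and the second probe set of Cryab read 21.7 and 14.1 at 0 h and 5.9 and 5.3 at 24 h. Of the 30 genes of heat shock and chaperones, Cryab was the 1 that was 2-fold higher at either time. Of all genes, 0.893% were at 0 h and 2.51% at 24 h. The other 4 of the 22 genes, named after their values were seen, were Cd28, Adgrg1, Plscr2 and Rac2, with smaller ratios of the 2 times between 1.01 and 1.24. Of the 22, those no longer 2-fold higher at both times under another processing were Adgrg1, Plscr2, Rac2 and Slfn2 with a pseudocount, these 4 and Gsta2 with spike-in scaling, Plscr2 and Rac2 with quantile normalization, and Hsd11b1 with a higher floor.

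**Figure D2:**
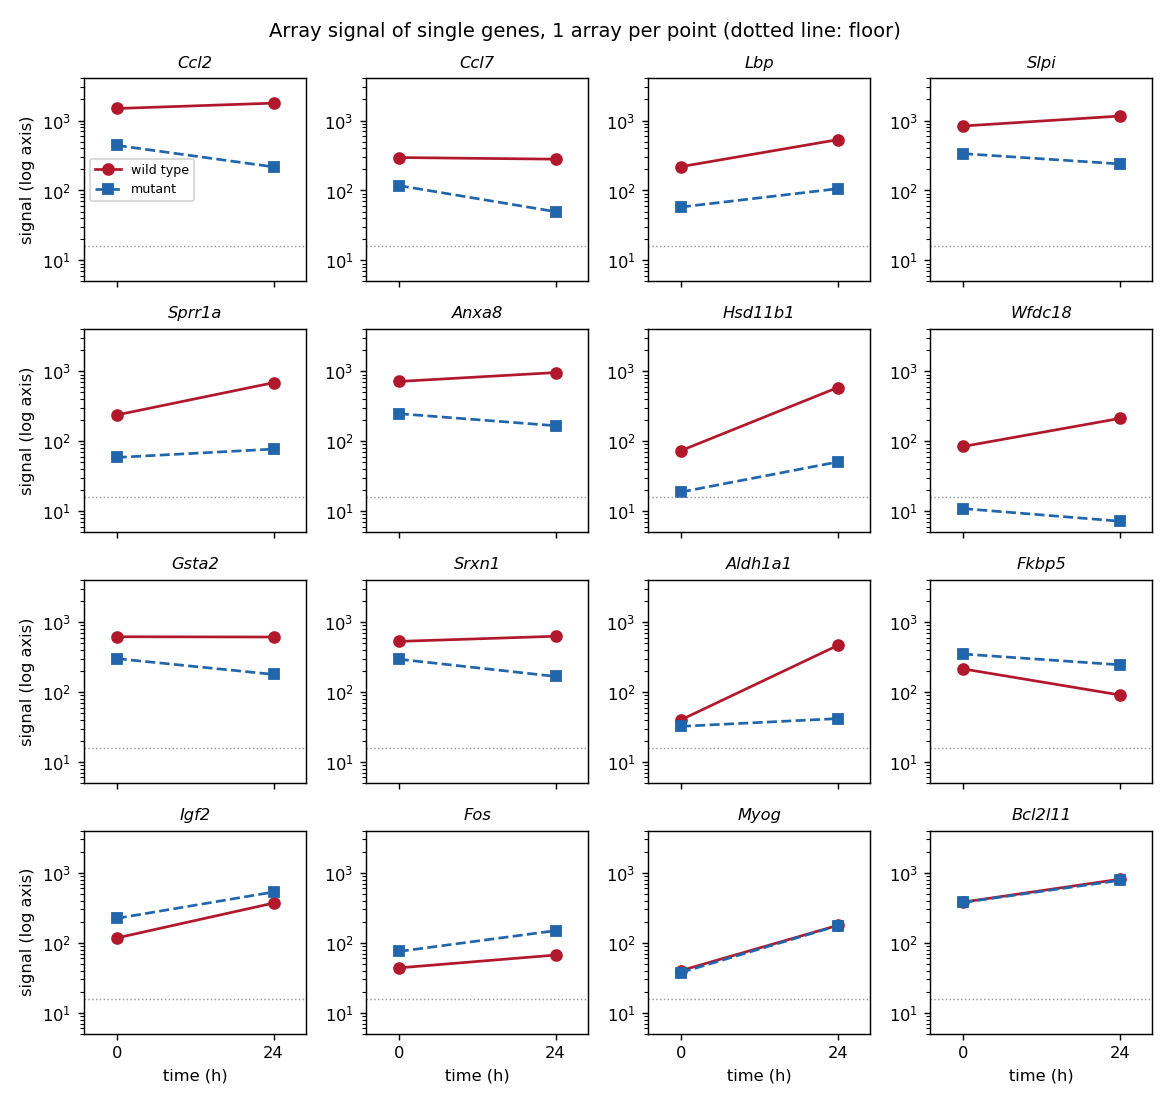
Array signal (log axis) of 16 genes at 0 h and 24 h with wild-type p300 (red circles, solid lines) and mutant p300 (blue squares, dashed lines), 1 array per point; the dotted line is the floor of 15.9. The lines stay apart at both times for genes such as Ccl2 and Sprr1a, part after 0 h for Aldh1a1, and lie on each other for Myog and Bcl2l11.

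At both times 2 genes were at least 2-fold lower with wild type. The wild-type arrays of Ppp2r5d both read under 73.7, so it passed the filter only through its mutant arrays, which favours this direction. Ppp2r5d, a regulatory subunit of protein phosphatase 2A, read 57.0 with wild type and 145.2 with mutant p300 at 0 h, and 47.9 and 139.4 at 24 h, 2.55-fold and 2.91-fold lower (adjusted p = 0.0673). Plgrkt, a plasminogen receptor, read 194.1 and 389.3 and then 115.7 and 344.6, 2.01-fold and 2.98-fold lower, and limma called it (adjusted p = 0.0408). With a pseudocount in place of the floor, and with quantile normalization, 1 of these 2 genes was still 2-fold lower at both times. Pla2g12a, a secreted phospholipase A2, was called by limma at ratios of -0.80 and -1.22, under 2-fold at 0 h; it was named after its values were seen.

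All 22 genes higher with wild type at both times had a larger ratio at 24 h than at 0 h; their median ratio was 1.32 at 0 h and 2.20 at 24 h, and for Rac2 the ratios were 1.02 and 1.03. Of all 4817 genes, 2908 (60.4%) lay further from 0 at 24 h than at 0 h. Being 2-fold apart at both times does not fix which time has the larger ratio, but the spread over all genes was also wider at 24 h. From 0 h to 24 h the median difference in log2 signal of the 22 genes was 0.49 with wild type and -0.13 with mutant p300. With wild type 5 of the 22 were at least 2-fold higher at 24 h than at 0 h and 0 lower, and with mutant 1 was higher and 3 lower. For the 99 genes that were 2-fold higher at 24 h alone, the median differences from 0 h to 24 h were 0.37 with wild type and -0.48 with mutant; 22 were 2-fold higher at 24 h with wild type and 23 were 2-fold lower at 24 h with mutant. Of these 99, 86 had a ratio above 0 at 0 h. For the 43 genes 2-fold lower at 24 h alone the medians were -0.92 with wild type and 0.43 with mutant, with 20 genes 2-fold lower at 24 h than at 0 h with wild type and 8 higher with mutant. Among all 4817 genes, 82 were 2-fold higher and 139 lower at 24 h with wild type, and 76 and 159 with mutant. The ratio and the difference over time share arrays, so these values describe the same signals and are no separate evidence.

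Several genes had a much larger ratio at 24 h than at 0 h. Aldh1a1, which makes retinoic acid from retinaldehyde, read 40 with wild type and 32.3 with mutant at 0 h, and 463.7 and 41.7 at 24 h. The wild-type array at 24 h stood alone, and the ratios were 0.31 and 3.48; a second, dim probe set read between 22.4 and 41.8 on all 4 arrays. Efhd1, a mitochondrial calcium-binding protein, read 60.7 and 34.3 and then 247.0 and 29.3 (ratios of 0.82 and 3.08), and here again the high value was that of wild type at 24 h. Prss30, a serine protease, had the other pattern, with 156.1 and 153.4 at 0 h and 178.7 and 21.7 at 24 h, so that the mutant array at 24 h stood apart. Cyp2b10, a cytochrome P450, read 65.1 and 57.5 and then 169.9 and 24.6, so that wild type was higher and mutant lower at 24 h than at 0 h. Among genes with the opposite pattern, Zbtb17, the MYC-binding factor Miz-1, read 27.5, 32.6 and 26.7 on 3 arrays and 219.2 with mutant p300 at 24 h. Kif20a, a kinesin of cytokinesis, read 852.4 and 935.4 at 0 h, and 11.6 and 69.2 at 24 h, the former under the floor, so that wild type was at least 4.35-fold lower at 24 h. A second probe set of Kif20a gave ratios of -0.41 and -0.68. With 4 arrays the difference between the times has no test.

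Hsd11b1 encodes the enzyme that regenerates active glucocorticoid from its inert form, and the glucocorticoid receptor is a nuclear receptor that p300 can coactivate. Hsd11b1 read 73.4 with wild type and 18.8 with mutant p300 at 0 h, and 586.0 and 50.6 at 24 h. It was higher at 24 h than at 0 h by 3.00 on the log2 scale with wild type and by 1.43 with mutant, and the ratios were 1.97 and 3.53 (mean 2.75 ± 1.11, SD, n = 2; limma adjusted p = 0.0408). Its mutant signal at 0 h lay just above the floor, and with the floor at the 40th percentile the ratio at 0 h was 0.81 and the adjusted p 0.13. Genes known to respond to glucocorticoid did not move together. Fkbp5, a co-chaperone of the receptor, was lower with wild type, at 214.2 against 349.2 at 0 h and 90.8 against 244.9 at 24 h (ratios of -0.71 and -1.43, adjusted p = 0.0816). Per1, a clock gene, had -0.30 and -0.31. Dusp1, a phosphatase of MAP kinases, read 494.6 and 354.8 and then 1041.4 and 478.2 (0.48 and 1.12, adjusted p = 0.0926). Sgk1, a survival kinase, read 696.8 and 588.5 and then 757.7 and 249.1 (0.24 and 1.60, adjusted p = 0.165). Of 13 genes of retinoid and glucocorticoid action, 1 was at least 2-fold higher at both times, 4 were 2-fold higher at 24 h (with Aldh1a1, Dusp1 and Sgk1) and Fkbp5 lower, and limma called Hsd11b1 alone. Of all genes, 0.457% were 2-fold higher at both times. At 24 h 2.51% were higher and 0.934% lower, and limma called 0.477% higher.

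Genes of the response to oxidative stress and of glutathione metabolism leaned towards wild type. Of 32 tested, 21 were higher by any amount at both times and 3 lower, against 28.9% and 36.6% of all genes. In this list 1 was 2-fold higher at 0 h and 4 at 24 h (Gsta2, Gsta4, Nqo1 and Srxn1), against 0.893% and 2.51% of all genes. At either time 0 of the list were 2-fold lower. Against the median of all genes at each time 23 lay above and 2 below at both times. Spike-in scaling moves all ratios at a time alike, floored values aside, so it could hardly change these counts. By any amount, 17 of the list were higher and 1 lower at both times with that scaling, against 1507 and 517 of all 4817 genes. Gsta2, a glutathione S-transferase, read 616.9 with wild type and 300.1 with mutant p300 at 0 h, and 611.5 and 178.6 at 24 h (1.04 and 1.78, limma adjusted p = 0.0378). The wild-type arrays were level and the mutant arrays lower. Srxn1, which repairs oxidised peroxiredoxins, had the same shape, at 529.3 and 294.7 and then 627.0 and 167.1 (0.84 and 1.91, adjusted p = 0.0665). Another tested probe set of Srxn1 gave 0.80 and 1.45. Aldh3a1, an aldehyde dehydrogenase, was among the brightest of the list, at 5116.9 and 3130.3 and then 5609.1 and 2908.2 (0.71 and 0.95, adjusted p = 0.0788). A dimmer probe set of Aldh3a1, whose _f_at name marks possible cross-hybridisation, read 400.4 and 161.6 and then 644.1 and 192.2; it was 2-fold higher at both times, with ratios of 1.31 and 1.74, and limma called it (adjusted p = 0.0178), but the brighter one stands for the gene here. Gsta4 had ratios of 0.40 and 1.07.

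Genes of the extracellular matrix also had more members higher than lower, as deposited and with spike-in or quantile scaling. Of 49 tested, 29 were higher at both times by any amount and 9 lower, against 28.9% and 36.6% of all genes. At 24 h 6 were 2-fold higher (Col6a3, Fbln2, Lama4, Plat, Tnc and Vcan) and 0 lower, against 2.51% and 0.934% of all genes. Limma called 3 higher, Lama4, Tnc and Col6a3, against 0.477% of all genes. Tnc, tenascin C, read 226.9 and 122.6 at 0 h and 557.6 and 274.0 at 24 h (ratios of 0.89 and 1.03, adjusted p = 0.0474), with more signal at 24 h with either virus. Col6a3, a chain of collagen VI, read 2639.1 and 1562.7 and then 2868.4 and 1281.4 (0.76 and 1.16, adjusted p = 0.0474). Of 44 smooth muscle-like and adhesion genes 21 were higher and 6 lower at both times by any amount. In the list of Notch, BMP and TGF-beta signalling 14 and 6 of 32 were, against the same 28.9% and 36.6% of all genes. Some members lay on the other side: Tagln, which encodes transgelin, read 190.5 and 283.4 and then 154.0 and 316.8 (-0.57 and -1.04, adjusted p = 0.0956), and Tgfb1 had ratios of -0.51 and -0.71 (adjusted p = 0.0943). Slc1a4, a transporter of neutral amino acids in the list of the amino acid response, was called by limma at 0.80 and 1.14 (adjusted p = 0.0408).

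**Figure D3:**
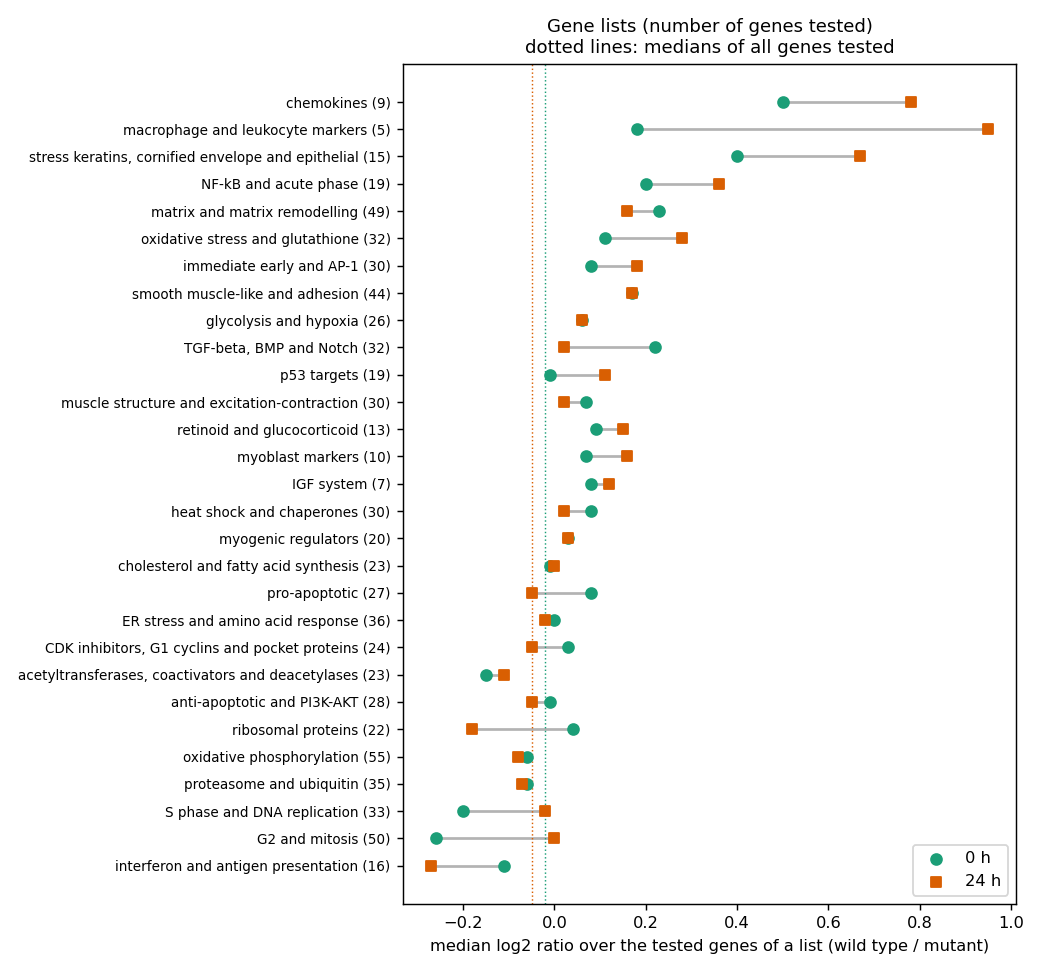
Median log2 ratio of wild-type over mutant p300 over the tested genes of each list with at least 5 tested genes, at 0 h (green circles) and 24 h (orange squares); dotted lines are the medians of all 4817 genes (-0.02 and -0.05). Chemokines (0.50 and 0.78) and stress keratins and cornified envelope (0.40 and 0.67) lie to the right at both times, and G2 and mitosis lies to the left at 0 h (-0.26) and at 0.00 at 24 h.

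Genes of the muscle programme and the cell cycle were on both sides, and limma called 0 of the tested genes in their lists. Of 20 myogenic regulators, 7 were higher and 6 lower at both times by any amount, 0 were 2-fold apart at either time, and limma called 0. For these and the lists below, 28.9% of all genes were higher and 36.6% lower at both times by any amount. With spike-in scaling 1507 and 517 of all 4817 genes were. At 0 h 0.893% of all genes were 2-fold higher and 0.374% lower. Myog, myogenin, a factor of myoblast differentiation, read 40 with wild type and 37.6 with mutant at 0 h, and 177.3 and 175.7 at 24 h. The signal at 24 h exceeded that at 0 h by 2.15 with wild type and 2.22 with mutant on the log2 scale, and the ratios were 0.09 and 0.01. Myod1 read 517.6 and 593.6 and then 419.1 and 732.1 (-0.20 and -0.80, adjusted p = 0.186). Of 30 genes of muscle structure, 0 were 2-fold apart at 0 h and 2 were 2-fold lower with wild type at 24 h, Car3 and Chrnb1, where 0.934% of all genes were. Car3, a carbonic anhydrase of muscle, read 501.5 and 674.8 and then 1637.4 and 3354.8. Mki67, a marker of cycling cells, read 442.5 and 606.6 at 0 h and 6.8 and 19 at 24 h. Of 50 genes of G2 and mitosis, 23 were lower at both times and 5 higher (11 and 3 with spike-in scaling), with median ratios of -0.26 and 0.00, and 0 were 2-fold apart at 0 h. With quantile normalization the median at 24 h was -0.12. Wild-type signals at 24 h lay under the floor for members such as Mki67, Kif20a (11.6) and Bub1 (3.1), which draws their ratios towards 0. Of 33 S phase genes 17 were lower at both times and 6 higher (8 and 6 with spike-in scaling), with Cdt1 and Rrm2 higher and Mcm5, Pold2 and Uhrf1 lower by 2-fold at 24 h, where 2.51% and 0.934% of all genes were. Of 24 CDK inhibitors, G1 cyclins and pocket proteins, Ccnd1, which encodes cyclin D1, was 2-fold higher at 24 h; it read 644.3 and 442.3 and then 531.8 and 207.0 (0.54 and 1.36, adjusted p = 0.0901). Limma called 0 genes of these 5 lists; an unadjusted p under 0.05, which 8.7% of all genes reached on the higher and 8.53% on the lower side, was reached by 4 higher and 1 lower gene among myogenic regulators, 3 and 2 in muscle structure, 0 and 6 in G2 and mitosis, 1 and 6 in S phase and 1 and 3 in the list of Ccnd1.

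The lists of cell death, read because the outcome differed, also had ratios near 0. Of 27 pro-apoptotic genes, 0 were 2-fold apart at either time, 11 were higher at both times by any amount and 9 lower (10 and 1 with spike-in scaling), and the median ratios were 0.08 and -0.05. Of all genes, 28.9% were higher and 36.6% lower at both times by any amount. At 2-fold the shares of all genes were 0.893% higher and 0.374% lower at 0 h, and 2.51% and 0.934% at 24 h. Counts of 0 or 1 in lists of this size lie near those shares. With spike-in scaling 1507 of the 4817 were higher and 517 lower. Bcl2l11, the gene of the death-promoting BH3-only protein Bim, read 381.6 with wild type and 377.7 with mutant at 0 h, and 810.2 and 781.0 at 24 h, ratios of 0.01 and 0.05; its other tested probe set had ratios of -0.55 and 0.38. Of 28 anti-apoptotic and PI3K-AKT genes, Sgk1 alone was 2-fold apart, at 24 h. Bcl2 had ratios of 0.20 and 0.57 and Bcl2l1, which encodes Bcl-xL, 0.18 and 0.01. Of 19 p53 targets, 0 were 2-fold apart; Cdkn1a, the inhibitor p21, had 0.22 and 0.23. Limma called 0 genes of these 3 lists; an unadjusted p under 0.05 was reached by 2 higher and 3 lower pro-apoptotic genes, 2 and 0 anti-apoptotic genes and 1 and 0 p53 targets, against 8.7% and 8.53% of all genes. A ratio near 0 does not show that the levels were equal. Igf2, the growth factor gene that the line's antisense cDNA targets, read 117.2 with wild type and 223.5 with mutant at 0 h, and 369.6 and 531.9 at 24 h (ratios of -0.93 and -0.53, adjusted p = 0.0997); its second probe set was under the floor throughout. Of 23 acetyltransferases, coactivators and deacetylases, 5 were higher at both times and 10 lower, but 7 higher and 3 lower with spike-in scaling. Crebbp, the paralog of p300, had -0.37 and -0.20, Kat2b -0.32 and -0.18, and Kat2a, another acetyltransferase, read 97.7 and 120.0 and then 42.2 and 145.4.

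Immediate early genes, which respond within minutes to growth factors, included members lower with wild type. Fos read 43.8 with wild type and 75.2 with mutant at 0 h, and 66.8 and 149.2 at 24 h (-0.78 and -1.16, adjusted p = 0.155), while another, dimmer one read 26.9, 8.5, 14.5 and 4.2 in the order wild type and mutant at 0 h, then at 24 h. Egr1 read 313.5 and 468.5 and then 463.0 and 793.3 (-0.58 and -0.78, adjusted p = 0.0789), and Ier2 had -0.60 and -0.77. The list as a whole did not lean that way: of 30 genes 15 were higher and 9 lower at both times, against 28.9% and 36.6% of all genes. In the interferon list 3 of 16 genes were higher and 9 lower at both times (4 and 6 with spike-in scaling), against the same shares of all genes. With spike-in scaling 1507 of all 4817 genes were higher and 517 lower. Irf9, a subunit of the interferon-responsive factor ISGF3, had -1.11 and -0.52. Slfn2, higher with wild type at 1.06 and 3.05, was the 1 member of this list 2-fold apart at both times. Hes1, a target of Notch, had -0.10 and 0.28.

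The promoters of the members were read for letters that match factors known to use p300. RefSeq promoter entries of the assembly GRCm38.p6 were matched by symbol, and 11 of the 22 genes higher at both times had a single one. Searched on both strands over the 250 bases before the gene start were 4 motifs: TGANTCA, bound by AP-1; TGACNNNGC, the core of the antioxidant response element; GGGNNNNNCC, a loose NF-kB match; and TATAAA, the TATA box. The AP-1 letters were in 2 of the 11 promoters (18.2%), against 6.96% of all 22862 promoters and 4.37% of those of 3110 tested genes. The antioxidant core was in 3 of 11 (27.3%, against 10% and 12.3%), the loose NF-kB letters in 5 of 11 (45.5%, against 44.8% and 62.9%) and TATAAA in 4 of 11 (36.4%, against 13.6% and 6.88%). The 4 were Sprr1a, Wfdc18, Nppb and Gsta2. In Gsta2 the match is on the other strand and begins 246 bases before the start, so the share counts letters and not placed TATA boxes. With 11 promoters these shares are descriptions, and a match is not a bound site. Shown are Sprr1a and Entpd2, which hold the same letters, and Hsd11b1 and Wfdc18, 2 of the genes with the largest ratios, followed by Srxn1 of the oxidative stress list. Each runs 5′ to 3′ on the gene's strand and ends 1 base before the gene start; capitals mark AP-1, antioxidant core and TATA matches. The capitals in Entpd2, and the leftmost ones in Sprr1a, are 1 stretch in which an AP-1 match and an antioxidant core on the other strand overlap, and Srxn1 has 2 AP-1 matches.
Sprr1a: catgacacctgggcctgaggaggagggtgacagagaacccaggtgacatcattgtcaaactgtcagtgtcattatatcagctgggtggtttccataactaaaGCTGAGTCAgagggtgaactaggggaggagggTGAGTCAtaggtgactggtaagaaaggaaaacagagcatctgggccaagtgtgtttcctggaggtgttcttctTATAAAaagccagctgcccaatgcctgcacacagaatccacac
Entpd2: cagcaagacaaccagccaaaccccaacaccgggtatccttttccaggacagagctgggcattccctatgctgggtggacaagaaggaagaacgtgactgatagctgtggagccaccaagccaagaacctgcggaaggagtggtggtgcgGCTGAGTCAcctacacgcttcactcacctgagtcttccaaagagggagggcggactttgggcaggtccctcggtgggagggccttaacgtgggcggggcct
Hsd11b1: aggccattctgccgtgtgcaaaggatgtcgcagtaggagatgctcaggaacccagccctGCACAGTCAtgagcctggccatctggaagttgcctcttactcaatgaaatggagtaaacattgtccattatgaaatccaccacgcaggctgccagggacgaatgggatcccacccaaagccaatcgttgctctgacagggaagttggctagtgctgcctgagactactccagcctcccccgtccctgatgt
Wfdc18: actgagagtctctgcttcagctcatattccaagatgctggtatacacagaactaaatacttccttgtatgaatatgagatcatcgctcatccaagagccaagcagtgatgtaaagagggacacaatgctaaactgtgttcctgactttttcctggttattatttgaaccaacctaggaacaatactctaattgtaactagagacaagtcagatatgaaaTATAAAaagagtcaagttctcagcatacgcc
Srxn1: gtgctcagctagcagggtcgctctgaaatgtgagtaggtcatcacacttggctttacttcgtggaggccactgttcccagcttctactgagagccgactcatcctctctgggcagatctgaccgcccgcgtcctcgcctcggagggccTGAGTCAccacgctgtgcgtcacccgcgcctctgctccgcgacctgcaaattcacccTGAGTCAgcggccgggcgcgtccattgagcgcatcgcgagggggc

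They lie at chr3:92485882-92486131 (Sprr1a, minus strand), chr2:25395624-25395873 (Entpd2, plus strand), chr1:193242361-193242610 (Hsd11b1, minus strand), chr11:83708754-83709003 (Wfdc18, plus strand) and chr2:152105274-152105523 (Srxn1, plus strand). In Sprr1a the AP-1 matches begin 146 and 116 bases before the start and the TATA match 43 bases before it; the TATA match of Wfdc18, like that of Nppb, begins 31 bases before the start.

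Several members were neighbours in the genome. In the RefSeq gene order of chromosome 11, the 8 consecutive tested genes from Ccl2 to Wfdc18 are Ccl2, Ccl7, Ccl8, Lig3, Slfn2, Ap2b1, Ccl9 and Wfdc18. Of these 8, 6 were at least 2-fold higher with wild type at 24 h and 4 at both times, and 0 were 2-fold lower at 24 h; among all 4809 ordered genes 2.52% were higher at 24 h and 0.457% at both times. The stretch holds genes of different kinds: chemokines, the DNA ligase gene Lig3, the clathrin adaptor gene Ap2b1, Slfn2, a regulator of T cell quiescence, and Wfdc18. Slfn2 read 130.7 with wild type and 62.6 with mutant at 0 h, and 185.0 and 22.4 at 24 h (1.06 and 3.05, limma adjusted p = 0.101), and its dimmer probe set gave 0.54 and 1.35. Ap2b1 had ratios of -0.35 and 1.10, and Lig3 -0.10 and 0.29. Slfn2 and Wfdc18, with both mutant arrays under 73.7, passed the filter only through their wild-type arrays, which favours this direction and raises the counts of the stretch. On either side the nearest 3 tested genes had ratios between -0.56 and 0.40. The highest count of genes 2-fold higher at 24 h in any 20 consecutive tested genes was 6, in windows of this stretch, and the highest elsewhere was 3, in 48 of 4429 windows. The ends of the stretch were chosen after the values were seen, and chemokine genes of this cluster are related in sequence, so this is a description with no test.

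**Figure D4:**
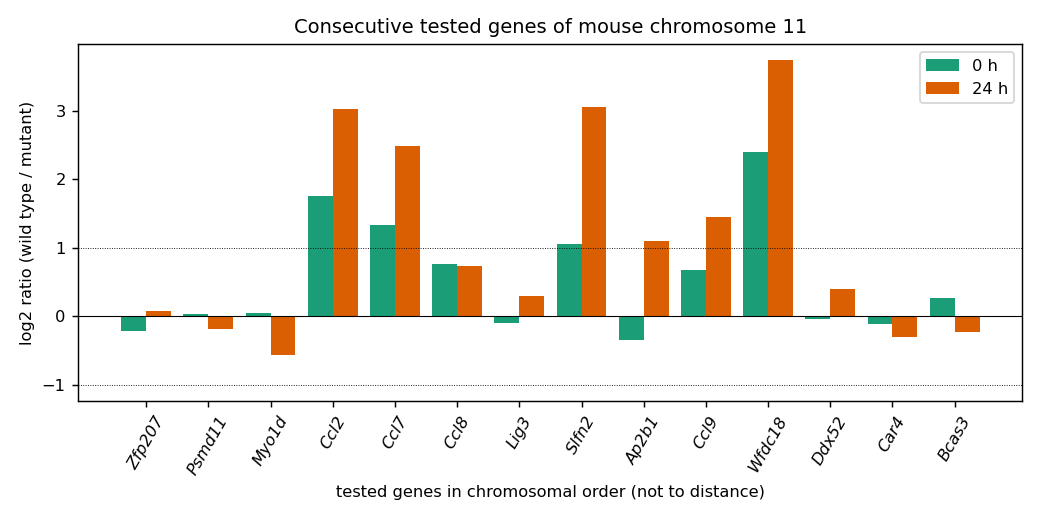
Log2 ratio of wild-type over mutant p300 at 0 h (green bars) and 24 h (orange bars) for 14 consecutive tested genes of mouse chromosome 11 in their order, not to distance; dotted lines mark 2-fold. The 8 genes from Ccl2 to Wfdc18 include 6 above 2-fold at 24 h, and the 3 genes on either side lie between -0.56 and 0.40.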

How the data were processed

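The 4 arrays held biotin-labelled total RNA of C2AS12 cells. Each deposited value is a linear signal intensity. MAS5 is named in the submitters' processing notes (version not given in the sources used here). After 66 control probe sets were left out, 12422 remained: 10833 with 1 gene symbol in the platform annotation, updated through RefSeq names, 396 with several and 1193 with none. Values were used as deposited, floored at the 25th percentile (15.9) and log2-transformed; probe sets with a mean signal at or above its median (73.7) were tested. Of the 6213 tested, 1158 have names other than plain _at. Of 702 genes with several tested probe sets, 271 had mean ratios of opposite sign.

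Calls were 2-fold or more in the same direction at both times, without a test. The 2-sided test used limma 3.58.1 under R 4.3.3 (lmFit on treatment plus time, eBayes with trend, Benjamini-Hochberg adjustment over all probe sets tested, threshold 0.05). On simulated data this fit, with its 1 residual degree of freedom, made more false calls than its threshold allows. Nothing in the labels ties arrays to separate cultures, and p-values then reflect only how much these arrays vary, which may be technical. Lists (33, with 1371 genes, of which 728 were tested) are described by counts and medians beside those of all genes. The members and lists were chosen with earlier results of these data known. Genes were named by rule: the 15 genes most strongly apart at both times in each direction, up to 4 per list and direction and those called by limma, the 10 with the largest difference between times each way, and 19 fixed genes. Alternatives were no filter or a stricter one, a pseudocount of 16, a floor at the 40th percentile (41.8), quantile and spike-in scaling, plain _at probe sets, other thresholds, and limma without trend, without time or on all 6 arrays. Promoters and gene order came from RefSeq (GRCm38.p6).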

Additional observations from a re-analysis of the deposited data

Results flagged for a closer look

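In 3 genes wild-type and mutant p300 were at least 2-fold apart at both times but in opposite directions; the difference between the times was not tested. Tmed9, a protein of vesicle traffic, read 146.0 with wild type and 426.6 with mutant at 0 h, and 440.8 and 128.5 at 24 h, so that its log2 ratio at 24 h exceeded that at 0 h by 3.33. For Prp2 the signals were 174.4 and 43.9 and then 54.6 and 159.7, a difference between the ratios of -3.54, from a probe set with an _r_at name. Pspn, the ligand persephin, read 132.6 and 50.3 and then 38.3 and 91.9, a difference of -2.66. Among 4817 genes, 22 were apart by 2-fold in 1 direction at both times with wild type higher, and 2 with wild type lower.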

How the results depend on the processing

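All 22 genes higher and both genes lower with wild type at both times kept that direction under every alternative that tested them. Only the pseudocount, the higher floor, quantile normalization and spike-in scaling could change a ratio. Of the 22, 18 stayed at least 2-fold under the pseudocount and 21 with the floor at the 40th percentile. With quantile normalization 20 did, and with spike-in scaling 17. The other filters, plain _at names and limma settings leave each ratio as it was. Their counts, such as 22 without the filter and 20 of 20 among plain _at probe sets and under the stricter filter, were thus fixed in advance. Wfdc18 and Clca3a1, with mutant signals under the floor, were the genes not tested under the stricter filter. No called gene reversed. Among uncalled genes under the rule for naming, the mean log2 ratio changed sign for Pspn with quantile normalization (-0.02) and, with spike-in scaling, for Snrp1c-ps2 (0.11), Fth1 (0.07), Csf1 (0.12), Rpsa (0.08), Rpl10a (0.05), Rpl6 (0.04), Nfkbib (0.06), Rps7 (0.02), Cct5 (0.06), Cct2 (0.02), Rxra (0.01), Col4a5 (0.02) and Mxi1 (0.01). In counts of probe sets, the main values were 83 at 0 h, 219 at 24 h, 29 at both times (26 higher, 3 lower) and 27 called by limma. Without the filter on dim probe sets (leaving out 2119 at the floor on all 4 arrays, a step added after seeing the data) they were 479, 764 and 116 (87 higher, 29 lower). The pseudocount gave 51 at 0 h. Scaling to the spike-in controls moved the median ratio of all probe sets to -0.11 at 0 h and 0.38 at 24 h. It gave 513 at 24 h (498 higher, 15 lower, against 165 and 54). The split at 0 h turned to 37 higher and 42 lower, against 57 and 26. This scaling moves all ratios at a time alike, floored values aside, so list medians relative to all genes could hardly change. Those of chemokines were 0.52 and 0.82 with either scaling. That of G2 and mitosis at 24 h was -0.08 rather than 0.05. At 1.5-fold the counts were 446, 848 and 144, and at 3-fold 20, 55 and 7. Limma called 0 with quantile normalization, with plain _at probe sets, without the variance trend and without the time term, 14 on all 6 arrays and 113 at an adjusted p under 0.10; the cause was not tested. Its other counts lay between 18 and 34. The fit reported here is itself paired by time. No paired analysis was possible because the labels carry no replicate numbers, as far as pairing by such numbers goes. Leaving out 1 array leaves limma no residual degree of freedom, so those fits were not run. Low signal is a further limit: 2119 of 12422 read at or under it on all 4 arrays.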
